A study of Arabidopsis thaliana with 6 samples.

Results

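The cysteine-rich receptor-like kinases (CRKs) of Arabidopsis thaliana were taken as the genes whose listed name begins with CRK and a number. There were 48 such entries among 34262 listed genes. Of these, 41 are annotated as receptor-like kinases or as related to them, and 40 of the 41 had reads and a test, out of 23542 genes tested in all. The entry of this kind without reads in any library was CRK33. The other 7 entries encode kinases related to calcium-dependent protein kinases (CDPKs), which share the abbreviation, and they were kept out of the counts.

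RNA of whole Col-0 seedlings aged 14 days, kept in long days at 22 °C, was sequenced as 2 libraries for each of 3 genotypes. The genotypes were jmj28, a mutant of the histone demethylase gene JMJ28, then JMJ28np5-OE, a line read here as an overexpressor from its label and its JMJ28 level, and the wild type (WT). The labels do not give the allele, the promoter of the transgene, the number of lines or the meaning of np5. They also do not say whether the libraries of a genotype came from separate batches of plants, so p-values measure only the spread between these libraries, which may be technical. The question here is how CRK transcripts differ with a low and with a high JMJ28 level.

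JMJ28 (listed as B160, locus AT4G21430, chr4:11407804-11412279, TAIR10) had 244 and 307 RPKM, reads scaled by exon length and by library total, in the JMJ28np5-OE libraries, against 6.90 and 6.50 RPKM in the WT libraries. In the authors' deposited tables its log2 fold change was −1.10 in jmj28 against WT, with a false discovery rate (FDR) of 3.07e-08, and 5.38 in JMJ28np5-OE against WT, with an FDR listed as 0. JMJ28 transcript was thus lower but still detected in jmj28. Library totals were inferred from the deposited means, as the most frequent values at the size of a single read, with the means taken as RPKM. The inferred totals were 13549528 and 11791666 reads in jmj28, 12380403 and 10632893 in JMJ28np5-OE, and 19693228 and 14309520 in WT. The libraries of a genotype are called deeper and shallower by these totals, and every value per library rests on them. The deposited tables hold genotype means and no value per library, and the reads of both libraries were solved from the means of the 2 higher genotypes of each gene. The lowest genotype of a gene, which was jmj28 for 33 of the 40 CRK genes, is known only as a mean computed from the authors' deposited fold change, and its spread is not known.

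CRKs are transmembrane kinases of plants. The part outside the cell usually carries a pair of DUF26 domains, each with the cysteine spacing C-X8-C-X2-C, and the part inside the cell is a serine/threonine kinase. They are known from responses to pathogens, to reactive oxygen species outside the cell and to abscisic acid, and overexpression of several members sets off cell death that resembles the hypersensitive response. Many CRK transcripts rise after salicylic acid treatment or infection, and WRKY transcription factors, which bind the W-box, have been linked to that response.

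The cysteine motif that names the family was read from the coding sequences of the RefSeq TAIR10.1 annotation, as a cysteine codon, 8 other codons, a cysteine codon, 2 other codons and a cysteine codon. It occurred 2 times in 37 of the 40 tested members, 3 times in CRK23, and a single time in CRK24 and CRK27. Codons for His-Arg-Asp followed further on by Asp-Phe-Gly, which mark the catalytic part of most protein kinases, were found in 36 of the 40. CRK9 and CRK34_1 had no match, and their annotated coding sequences are only 798 bases, against a median of 1981.5 bases over the tested members, and the annotation calls them kinase-related. CRK8 and CRK22 are not short, and for them the search says only that these codons are not there in this form. The motifs of 4 members that the results below turn on, and of CRK29, the tested member nearest to JMJ28, are shown as examples, with the 3 cysteine codons in capitals.
CRK4, first motif, chr3:16865739-16865777, minus strand: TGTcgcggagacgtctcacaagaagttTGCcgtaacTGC
CRK5, first motif, chr4:12119841-12119879, minus strand: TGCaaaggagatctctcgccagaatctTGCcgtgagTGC
CRK14, first motif, chr4:12156618-12156656, minus strand: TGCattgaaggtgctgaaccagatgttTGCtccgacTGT
CRK18, first motif, chr4:12169774-12169812, minus strand: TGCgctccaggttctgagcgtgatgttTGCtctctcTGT
CRK29, first motif, chr4:11404726-11404764, minus strand: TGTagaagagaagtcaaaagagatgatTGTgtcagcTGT
The search fixed the spacing, and the codons between the cysteines differ from gene to gene. Over the aligned bases of their coding sequences, with gaps left out, the 820 pairs of listed members had a median identity of 65.1%, with a range of 58.2% to 91.7%. Of the tested members, 21 were at least 80% identical to another member over at least 500 aligned bases. The closest pair was CRK9 and CRK8, at 91.7% over 795 bases, followed by CRK19 and CRK20, at 90.2% over 1935 bases. How the authors' counting treated reads that match more than 1 of these copies is not stated in the labels or headers, so values of such copies are uncertain. In addition, 8 members overlap another gene model (CRK10, CRK11, CRK16, CRK19, CRK25, CRK28, CRK29 and CRK42), and the library kit does not mark strand, so reads in the shared stretch cannot be assigned.

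The 300 bases before each annotated gene start were searched on both strands for 4 motifs. These were the W-box (TTGACC or TTGACT), the core bound by TGA factors (TGACG), the G-box (CACGTG) and the core of the rapid stress response element (CGCGTT). A stretch of TGAC cannot count for both of the first 2 motifs, and other overlaps of their ends were allowed. For CRK14, CRK15 and CRK43 the annotated exons hold coding sequence only, so their windows end at the start codon. A W-box was found before 27 of the 40 CRK genes (67.5%), against 32.3% of 23029 tested protein-coding genes. TGACG was found before 14 CRK genes (35%), against 21.9% of all. CACGTG stood before 2 CRK genes (5%), against 7.77%, and CGCGTT before 1 (2.5%), against 3.22%. With 1000 bases, a W-box stood before 36 CRK genes (90%), against 67.4% of all. Neighbouring CRK genes share descent and sequence, so these 40 windows are not independent. The windows of CRK4 and CRK18, the members called in JMJ28np5-OE against WT below, and of CRK5, which has the most W-boxes of those called in jmj28 against WT, are shown, with W-boxes in capitals on whichever strand they lie (AGTCAA is TTGACT on the other strand).
CRK4, chr3:16866262-16866561, minus strand: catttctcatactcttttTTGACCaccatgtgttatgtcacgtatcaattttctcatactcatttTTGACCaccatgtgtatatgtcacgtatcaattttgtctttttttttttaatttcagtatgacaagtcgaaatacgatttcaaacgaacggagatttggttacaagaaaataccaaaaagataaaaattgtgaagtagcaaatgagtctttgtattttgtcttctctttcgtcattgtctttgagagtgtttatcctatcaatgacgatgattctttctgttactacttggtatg
CRK5, chr4:12120221-12120520, minus strand: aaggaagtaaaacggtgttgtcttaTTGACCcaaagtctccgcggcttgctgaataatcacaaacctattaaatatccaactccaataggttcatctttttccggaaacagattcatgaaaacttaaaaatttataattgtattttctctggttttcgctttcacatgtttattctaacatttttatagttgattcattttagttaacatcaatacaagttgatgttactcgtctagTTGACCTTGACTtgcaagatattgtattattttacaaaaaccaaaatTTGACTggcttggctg
CRK18, chr4:12170081-12170380, minus strand: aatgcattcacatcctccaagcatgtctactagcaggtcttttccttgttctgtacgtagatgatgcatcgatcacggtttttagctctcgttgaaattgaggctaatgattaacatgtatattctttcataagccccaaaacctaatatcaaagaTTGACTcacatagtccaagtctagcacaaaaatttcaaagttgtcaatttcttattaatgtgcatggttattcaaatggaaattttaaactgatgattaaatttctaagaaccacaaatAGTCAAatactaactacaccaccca
CRK4 holds 2 W-boxes that begin 282 and 235 bases before the gene start, each inside a near-repeat of the same stretch. CRK5 holds 4, of which 2 adjoin each other at 63 and 57 bases before the start. CRK18 holds 2, at 144 and 25 bases. Among the CRK genes called in at least 1 comparison below, 11 of 16 had a W-box within 300 bases, and among those called in none, 16 of 24 did, so its presence was about as frequent in both groups. A match is a description of these letters and not a bound site.

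**Figure D1:**
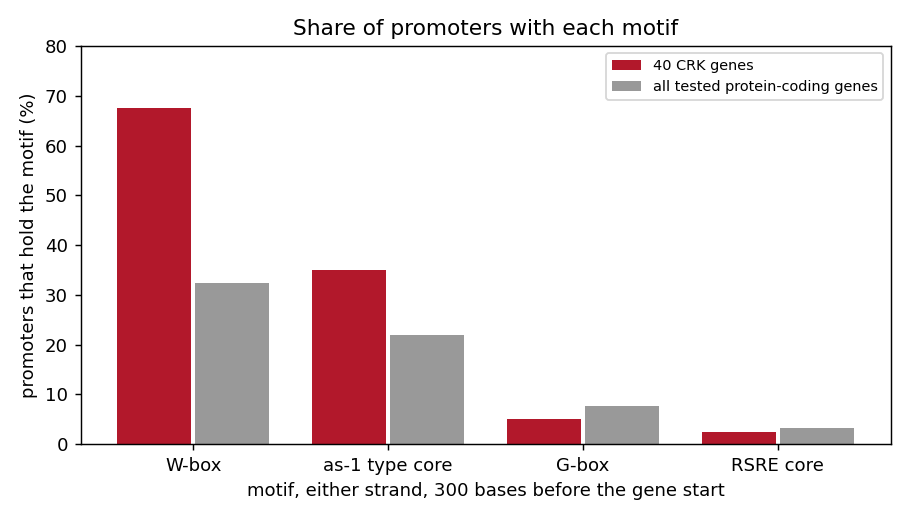
Bars give the percent of promoter windows, 300 bases before the gene start, that hold each motif on either strand, for the 40 tested CRK genes (red) and for 23029 tested protein-coding genes (grey). The W-box is at 67.5% in CRK genes and 32.3% in all genes, and the G-box and the RSRE core are at or below 7.77% in both.

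CRK transcripts were on the whole low in these seedlings. The highest of the 3 genotype means in the authors' deposited tables ranged from 0.025 RPKM in CRK43 to 29.1 RPKM in CRK18. Its median was 2.66 RPKM over the CRK genes and 7.81 RPKM over all tested genes. Of the 40, 27 reached 1 RPKM in that highest mean, 8 reached 10 RPKM and 13 stayed under 1 RPKM. The 8 most abundant by this measure were CRK18, CRK9, CRK19, CRK10, CRK2, CRK40, CRK3 and CRK22. At the lowest level, CRK43 had 0 and 0.050 RPKM in the JMJ28np5-OE libraries and 0 and 0.037 RPKM in the WT libraries, which is at most a few reads, and no direction is read from it.

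In jmj28 against WT, 6 of the 40 CRK genes were called lower and 0 higher at a deposited FDR under 0.05, where 1.1% of all tested genes were called lower and 0.208% higher. The 6 were CRK2, CRK4, CRK5, CRK9, CRK13 and CRK14, and at an unadjusted deposited p under 0.05 the counts were 17 lower and 1 higher, where 5.52% of all tested genes were lower and 3.07% higher. The log2 fold change lay below 0 for 34 of the 40 members, against 50.7% of all tested genes. Its median in the authors' deposited table was −0.69 over the CRK genes and −0.00 over all tested genes. The median log2 fold change in the deposited table was −0.48 among the 27 CRK genes that reached 1 RPKM in any genotype. Over the 19025 tested genes that did, it was 0.00. The filter takes the highest genotype mean, so genes low in jmj28, such as CRK14, passed through the other genotypes. The −0.48 is therefore no separate support for a lower level. These are RNA pools of whole seedlings, in which fewer cells of a type and less RNA per cell cannot be told apart.

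CRK4 and CRK5, which are known for cell death when overexpressed, were lower in jmj28. CRK4 (AT3G45860, chr3:16863088-16866261) had a jmj28 mean of 1.996 RPKM computed from the authors' deposited table, against 4.36 and 4.03 RPKM in the WT libraries. The WT libraries lay close together and both were about double the jmj28 mean. The deposited table gives CRK4 a log2 fold change of −1.11 with an FDR of 5.64e-06. CRK5 (AT4G23130, chr4:12117491-12120220), also linked to abscisic acid and leaf senescence, had a jmj28 mean of 1.27 RPKM computed from the authors' deposited table, against 3.24 and 3.75 RPKM in the WT libraries. Both WT libraries stood well above that mean, and the deposited table gives a log2 fold change of −1.49 with an FDR of 0.000772. CRK19 and CRK20, studied with them for the same trait, were not called. CRK20, at a level under 1 RPKM, is given −1.08 as log2 fold change by the authors' deposited table (FDR 1.0). CRK19, its closest copy, had 16.8 and 16.9 RPKM in the jmj28 libraries and 0.01 as log2 fold change in the authors' deposited table (FDR 1.0), with the WT mean computed as 16.4 RPKM.

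CRK13, whose raised expression is known to increase salicylic acid defences, and CRK14, its neighbour, were also lower. CRK13 (AT4G23210, chr4:12148673-12151638) had a jmj28 mean of 1.22 RPKM computed from the authors' deposited table, against 1.88 and 3.92 RPKM in the WT libraries. CRK14 (AT4G23220, chr4:12154091-12156881) had a jmj28 mean of 0.530 RPKM computed from the authors' deposited table, against 1.18 and 3.08 RPKM in the WT libraries. For both genes the shallower WT library was more than double the deeper one, although each WT library was above the jmj28 mean. The authors' deposited table gives log2 fold changes of −1.28 (FDR 0.0195) for CRK13 and −2.03 (FDR 0.00389) for CRK14. Without the shallower WT library the log2 ratio was −0.62 for CRK13 and −1.16 for CRK14, so the size of both differences rests on that library. The deposited test cannot be rerun without a library.

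CRK2, which phosphorylates the NADPH oxidase RBOHD and so acts on reactive oxygen production, was lower in jmj28, and so was CRK9, a short member of the large chromosome 4 group. CRK2 (AT1G70520, chr1:26584729-26587628) had a jmj28 mean of 10.3 RPKM computed from the authors' deposited table, against 13.7 and 15.3 RPKM in the WT libraries. CRK9 (AT4G23170, chr4:12134973-12136796) had a jmj28 mean of 11.6 RPKM computed from the authors' deposited table, against 18.6 and 18.1 RPKM in the WT libraries. The WT libraries were close together for both genes and lay above the jmj28 mean. The deposited table gives log2 fold changes of −0.52 (FDR 0.0279) for CRK2 and −0.70 (FDR 0.000436) for CRK9. The annotated coding sequence of CRK9 is 798 bases, against 1992 bases for CRK5, and most of it matches CRK8.

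Among members with a known role that were not called, CRK6 and CRK7, which protect against reactive oxygen outside the cell, and CRK36, a partner of the immune kinase BIK1, had low means in jmj28 and far-apart WT libraries. CRK6 had a jmj28 mean of 0.928 RPKM computed from the authors' deposited table, against 1.06 and 3.34 RPKM in the WT libraries, with a log2 fold change of −1.28 and an FDR of 1.0. CRK7 had a jmj28 mean of 0.124 RPKM computed from the authors' deposited table, against 0.273 and 0.750 RPKM in WT, with a log2 fold change of −2.07 and an FDR of 0.359. CRK36 had a jmj28 mean of 0.447 RPKM computed from the authors' deposited table, against 0.448 and 1.82 RPKM in WT, with a log2 fold change of −1.37 and an FDR of 0.601. In each case the deeper WT library was the lower of the pair, and for CRK36 it was about level with the jmj28 mean.

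**Figure D2:**
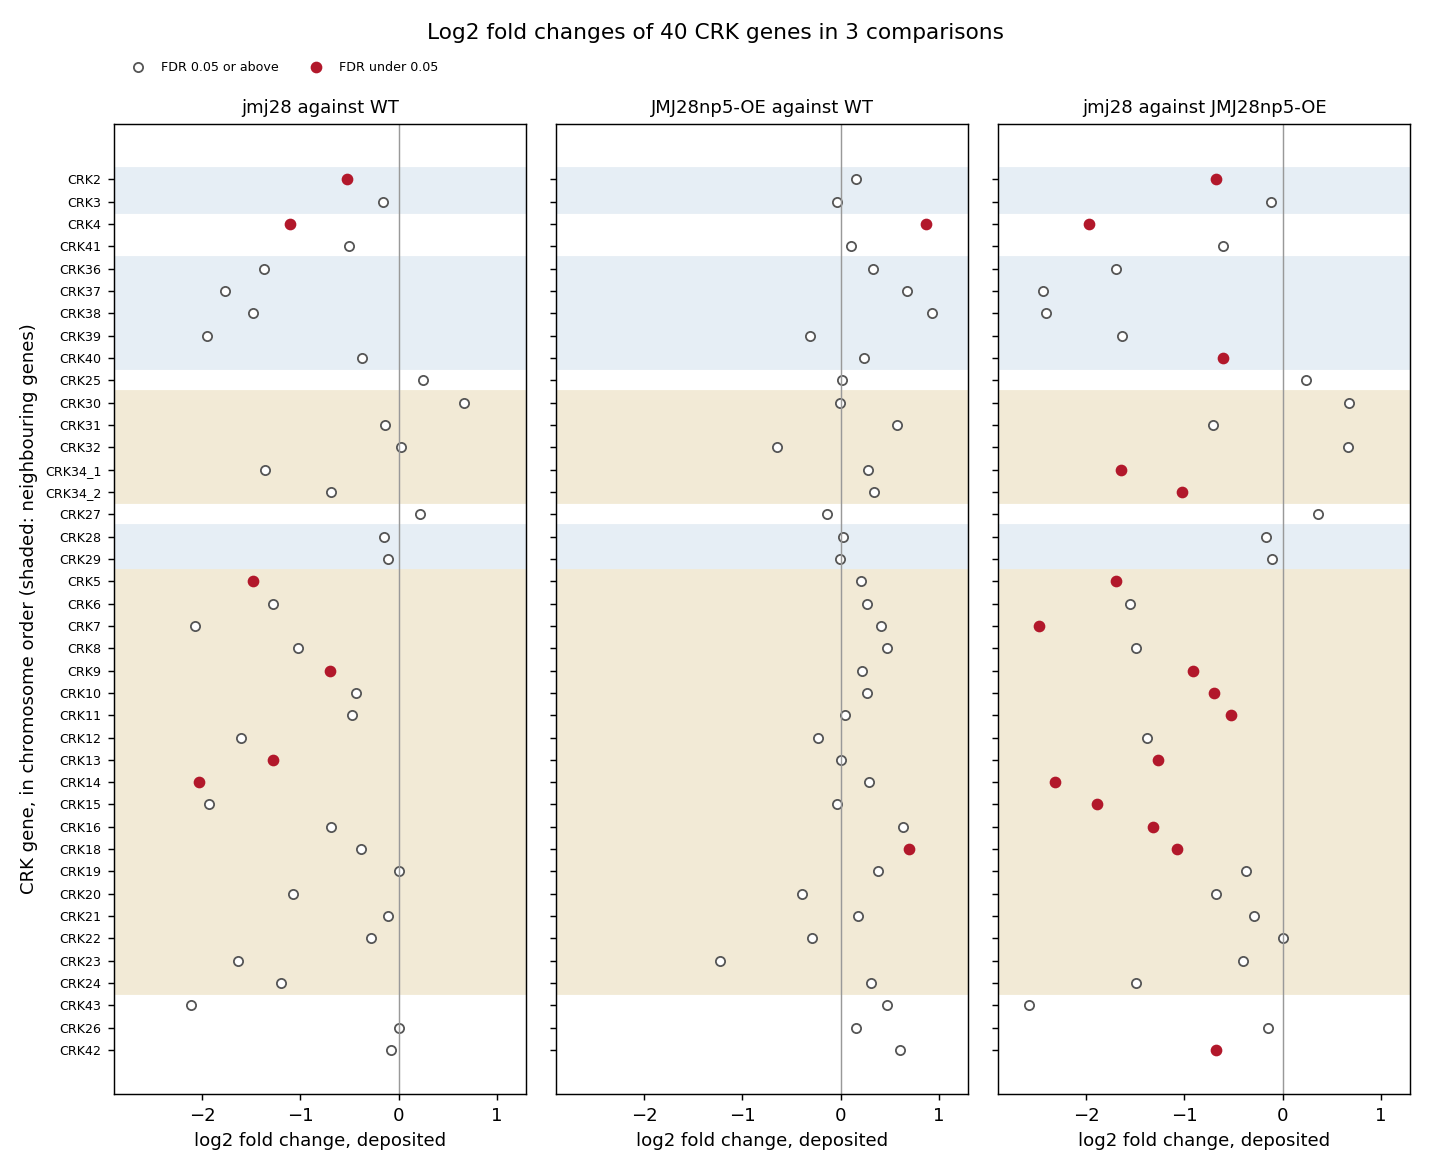
Points give the log2 fold change of each of the 40 tested CRK genes in the authors' deposited tables, in chromosome order from top to bottom, with neighbouring genes shaded together and an FDR under 0.05 in red. In jmj28 against WT and in jmj28 against JMJ28np5-OE every red point lies below 0 (6 and 16 genes), and in JMJ28np5-OE against WT the 2 red points, CRK4 and CRK18, lie above 0.

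In JMJ28np5-OE against WT, 2 of the 40 CRK genes were called higher and 0 lower at a deposited FDR under 0.05, where 2.87% of all tested genes were called higher and 0.684% lower. This share of 5% is near that background. At an unadjusted deposited p under 0.05 the counts were 5 higher and 1 lower, where 8.61% of all tested genes were higher and 5.57% lower. The log2 fold change lay above 0 for 28 of the 40 members, against 50.6% of all tested genes, with a median of 0.21 over the CRK genes and 0.00 over all genes in the authors' deposited table. Of the 33 CRK genes whose reads were known in both genotypes, 8 had each JMJ28np5-OE library above each WT library (24.2%), against 28.7% of 7660 genes. Both lay below for 2 of the 33, against 6.61% of the 7660. These shares, too, were near those of the 7660 genes. Most of the 7660 had their lowest mean in jmj28, since reads are known only for the 2 higher genotypes of a gene. They are therefore not a sample of all tested genes.

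CRK4 and CRK18 were the 2 members called. CRK4 had 7.53 and 7.59 RPKM in the JMJ28np5-OE libraries, against 4.36 and 4.03 RPKM in the WT libraries. The genotypes did not overlap and the libraries of each lay close together, with a log2 fold change of 0.86 and an FDR of 1.68e-05 in the authors' deposited table. CRK18 (AT4G23260, chr4:12167416-12170080) had 23.7 and 34.5 RPKM in the JMJ28np5-OE libraries, against 17.0 and 19.8 RPKM in the WT libraries. The genotypes did not overlap, and the shallower JMJ28np5-OE library stood above the other. The authors' deposited table gives CRK18 a log2 fold change of 0.69 with an FDR of 0.00136. The next smallest FDR was that of CRK42, which had 4.39 and 6.14 RPKM in the JMJ28np5-OE libraries, against 3.37 and 3.65 RPKM in WT, and a log2 fold change of 0.61 with an FDR of 0.0621 in the authors' deposited table. CRK4 is thus the single member with a call in each comparison against WT, below WT in jmj28 and above it in JMJ28np5-OE, and these calls share the WT libraries.

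The other members called lower in jmj28 were close to WT in JMJ28np5-OE. CRK2 had 15.7 and 16.0 RPKM in the JMJ28np5-OE libraries, against 13.7 and 15.3 RPKM in WT, and CRK9 had 20.6 and 21.5 RPKM, against 18.6 and 18.1 RPKM in WT. The JMJ28np5-OE values exceeded both WT values by small margins. CRK5 had 3.57 and 4.36 RPKM in the JMJ28np5-OE libraries, against 3.24 and 3.75 RPKM in WT, and the libraries overlapped. CRK13 had 3.17 and 2.48 RPKM in the JMJ28np5-OE libraries, against 1.88 and 3.92 RPKM in WT. CRK14 had 2.74 and 2.33 RPKM in the JMJ28np5-OE libraries, against 1.18 and 3.08 RPKM in WT. For both genes the JMJ28np5-OE libraries lay between the WT libraries. The authors' deposited table gives these 5 genes log2 fold changes of −0.00 (CRK13) to 0.29 (CRK14), with FDRs of 0.759 (CRK9) to 1.0.

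In jmj28 against JMJ28np5-OE, 16 of the 40 CRK genes were called lower and 0 higher at a deposited FDR under 0.05, where 7.29% of all tested genes were called lower and 4.12% higher. At an unadjusted deposited p under 0.05 the counts were 24 lower and 1 higher, where 13.6% of all tested genes were lower and 10.8% higher. The log2 fold change lay below 0 for 35 of the 40 members, against 51.8% of all tested genes, with a median of −0.82 over the CRK genes and −0.02 over all genes in the authors' deposited table. This comparison shares its libraries with the other pair, so it is no separate evidence. The 16 were CRK2, CRK4, CRK5, CRK7, CRK9, CRK10, CRK11, CRK13, CRK14, CRK15, CRK16, CRK18, CRK34_1, CRK34_2, CRK40 and CRK42.

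CRK4 had the smallest FDR. Its jmj28 mean of 1.996 RPKM, computed from the authors' deposited table, stood against 7.53 and 7.59 RPKM in the JMJ28np5-OE libraries. CRK5 had a jmj28 mean of 1.27 RPKM, again computed from the authors' deposited table, against 3.57 and 4.36 RPKM in JMJ28np5-OE. CRK14 had 0.530 RPKM, computed the same way from the authors' deposited table, against 2.74 and 2.33 RPKM in JMJ28np5-OE. For these 3 genes each JMJ28np5-OE library was well above the jmj28 mean. The log2 fold changes in the authors' deposited table were −1.97 (FDR listed as 0), −1.70 (FDR 7.45e-06) and −2.32 (FDR 6.75e-05), in that order.

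The abundant members CRK10, CRK18 and CRK40 joined the calls in this comparison. CRK18 had a jmj28 mean of 14.4 RPKM computed from the authors' deposited table, against 23.7 and 34.5 RPKM in JMJ28np5-OE. CRK10, whose transcript is known to respond to salicylic acid, had a jmj28 mean of 12.5 RPKM computed from the authors' deposited table, against 17.1 and 21.8 RPKM in JMJ28np5-OE. CRK40 had a jmj28 mean of 8.996 RPKM computed from the authors' deposited table, against 12.2 and 14.2 RPKM in JMJ28np5-OE. The JMJ28np5-OE libraries were above the jmj28 mean for all 3 genes. The log2 fold changes in the authors' deposited table were −1.07 (FDR 5.72e-09) for CRK18, −0.70 (FDR 2.81e-05) for CRK10 and −0.61 (FDR 0.000689) for CRK40. Against WT, where CRK10 had 15.7 and 17.3 RPKM and CRK40 10.5 and 12.2 RPKM, jmj28 was lower by less, with log2 fold changes of −0.44 (FDR 0.117) and −0.37 (FDR 0.356) in the authors' deposited table.

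CRK7 and CRK34_1 had the differences that depended most on a single library among the 16 called in jmj28 against JMJ28np5-OE. CRK7 had a jmj28 mean of 0.124 RPKM computed from the authors' deposited table, against 0.939 and 0.379 RPKM in JMJ28np5-OE, and the log2 fold change of −2.48 (FDR 0.027) became a log2 ratio of −1.62 without the deeper JMJ28np5-OE library. CRK34_1 had a jmj28 mean of 0.900 RPKM computed from the authors' deposited table, against 1.86 and 3.54 RPKM in JMJ28np5-OE, and its log2 fold change of −1.65 (FDR 0.00748) became −1.05 without the shallower JMJ28np5-OE library. Each JMJ28np5-OE library was above the jmj28 mean for both genes, and no jmj28 library could be left out. CRK34_1 has a coding sequence of 798 bases and lies next to CRK34_2, which had a jmj28 mean of 1.43 RPKM computed from the authors' deposited table, against 2.64 and 2.996 RPKM in JMJ28np5-OE. The authors' deposited table gives CRK34_2 −1.03 as log2 fold change (FDR 0.00473).

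CRK2 and CRK9 were called lower here as well as against WT. CRK2 had a jmj28 mean of 10.3 RPKM computed from the authors' deposited table, against 15.7 and 16.0 RPKM in JMJ28np5-OE. CRK9 had a jmj28 mean of 11.6 RPKM computed from the authors' deposited table, against 20.6 and 21.5 RPKM in JMJ28np5-OE. The JMJ28np5-OE libraries lay close together and above the jmj28 mean for both genes, with log2 fold changes of −0.68 (FDR 0.000109) for CRK2 and −0.92 (FDR 4.31e-08) for CRK9 in the authors' deposited table.

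The remaining called genes were CRK11, CRK13, CRK15, CRK16 and CRK42. Their log2 fold changes in the authors' deposited table ran from −1.89 (CRK15) to −0.52 (CRK11), with FDRs of 0.00445 (CRK13) to 0.0324 (CRK15). CRK16 had a jmj28 mean of 0.870 RPKM computed from the authors' deposited table, against 1.63 and 2.55 RPKM in JMJ28np5-OE and 1.35 and 1.38 RPKM in WT. CRK42 had a jmj28 mean of 3.41 RPKM computed from the authors' deposited table, against 4.39 and 6.14 RPKM in JMJ28np5-OE and 3.37 and 3.65 RPKM in WT. CRK42 in jmj28 was therefore level with WT, and the JMJ28np5-OE libraries stood above both.

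**Figure D3:**
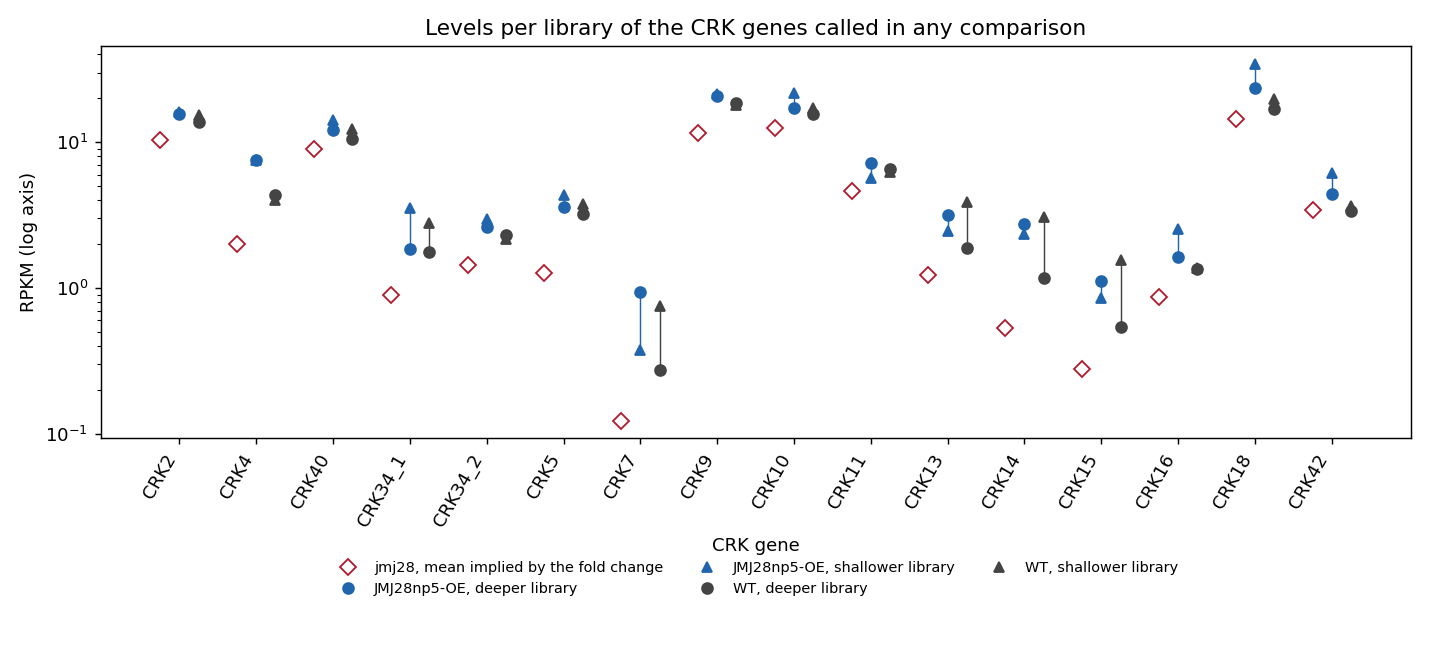
Levels in RPKM on a log axis for the 16 CRK genes called in any comparison, with the jmj28 mean computed from the deposited fold change as an open diamond, and the libraries of JMJ28np5-OE (blue) and WT (grey) as circles (deeper) and triangles (shallower). The jmj28 mean is below all 4 library values for each gene except CRK42, where 3.41 RPKM lies within the WT pair of 3.37 and 3.65 RPKM.

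The genotype with the lowest mean was jmj28 for 33 of the 40 CRK genes (82.5%), against 30.4% of 22249 genes for which it could be told. JMJ28np5-OE was lowest for 5 members (CRK22, CRK25, CRK27, CRK30 and CRK32) and WT for 2 (CRK19 and CRK26). CRK22 had 11.7 and 8.28 RPKM in both jmj28 libraries, against 10.98 and 12.97 RPKM in WT. CRK30 had 3.38 and 1.82 RPKM in both jmj28 libraries, against 1.77 and 1.42 RPKM in WT, and of the CRK genes it had the largest positive value in jmj28 against WT in the authors' deposited table, 0.67 in log2 (FDR 0.725). For CRK22 the libraries of the genotypes overlapped, and for CRK30 both jmj28 libraries were above both WT libraries.

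Most CRK genes lie on chromosome 4 (36 of the 40), many of them side by side. Runs were formed by joining CRK genes whose starts were at most 50000 bases apart. The largest run, CRK5 to CRK24, held 19 genes at chr4:12117491-12191704. In jmj28 against WT, 4 of the 19 were called lower (CRK5, CRK9, CRK13 and CRK14), 18 had a log2 fold change below 0, and the median in the authors' deposited table was −1.08. Of all tested genes, 1.1% were called lower there and 50.7% lay below 0. In JMJ28np5-OE against WT, CRK18 alone was called, higher, and the median in the authors' deposited table was 0.22. In jmj28 against JMJ28np5-OE, 10 of the 19 were called lower, against 7.29% of all tested genes. The median of the run was −1.27 in the authors' deposited table. The values within the run were uneven, also past CRK18, its last called gene. There CRK19, CRK21 and CRK22 had log2 fold changes of 0.01, −0.11 and −0.29 in jmj28 against WT in the authors' deposited table (FDR 0.807 or above). CRK20, CRK23 and CRK24, each at a level under 1 RPKM, lie past it too. Their log2 fold changes in the authors' deposited table were −1.08, −1.63 and −1.19, and none was called.

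The run CRK36 to CRK40, 5 genes at chr4:2231717-2292965, had 0 calls against WT in either direction in jmj28 or JMJ28np5-OE, with 2 genes lower in jmj28 at an unadjusted p under 0.05. All 5 had a log2 fold change below 0 in jmj28 against WT, with a median of −1.48 in the authors' deposited table, but CRK36 to CRK39 were low and uneven between libraries. The run CRK30 to CRK34_2 had 5 tested genes. Of these, CRK34_1 and CRK34_2 were called lower in jmj28 against JMJ28np5-OE, where 7.29% of all tested genes were. Log2 fold changes of this run in jmj28 against WT went from −1.37 to 0.67 in the authors' deposited table. CRK2 and CRK3 adjoin on chromosome 1. CRK3 was not called, with 11.7 and 11.4 RPKM in JMJ28np5-OE, 11.4 and 12.9 RPKM in WT and a jmj28 mean of 11.1 RPKM computed from the authors' deposited table. Of the 7 members that stand alone, CRK4 was called in all 3 comparisons and CRK42 in jmj28 against JMJ28np5-OE.

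CRK28, which associates with the immune co-receptor BAK1, and its neighbour CRK29 lie beside JMJ28, towards lower coordinates. CRK29 ends 2569 bases from the JMJ28 gene and CRK28 5624 bases from it. CRK28 had 2.25 and 3.18 RPKM in the JMJ28np5-OE libraries, against 2.95 and 2.38 RPKM in WT, and a jmj28 mean of 2.48 RPKM computed from the authors' deposited table. CRK29 had 9.35 and 9.81 RPKM in the JMJ28np5-OE libraries, against 9.86 and 9.63 RPKM in WT, and a jmj28 mean of 9.26 RPKM computed from the authors' deposited table. The JMJ28np5-OE libraries overlapped with the WT libraries for CRK28, and for CRK29 all 4 libraries lay within a narrow range. Neither gene was called in any comparison or had an unadjusted p under 0.05, with log2 fold changes of −0.17 to 0.02 in the authors' deposited tables. These genes are 86.9% identical to each other over 2024 bases and their models overlap.

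The libraries of a genotype differed more for some CRK genes than for most genes. CRK6, CRK7, CRK36, CRK37, CRK38 and CRK39 were at least 2-fold higher in the deeper than in the shallower JMJ28np5-OE library and at least 2-fold higher in the shallower than in the deeper WT library. No CRK gene showed the opposite. The lowest of these 4 libraries held 32 reads for CRK6, 18 for CRK36, 9 for CRK7, 5 for CRK37 and 1 each for CRK38 and CRK39. The ratios of the last 4 genes thus rest on few reads. CRK6 had 4.07 and 1.16 RPKM in the deeper and shallower JMJ28np5-OE libraries, against 1.06 and 3.34 RPKM in the deeper and shallower WT libraries. CRK36 had 2.03 and 0.746 RPKM in the JMJ28np5-OE libraries, against 0.448 and 1.82 RPKM in WT, in the same order. Among genes with at least 10 reads in each of these libraries, 2 of 24 CRK genes (CRK6 and CRK36) had this pattern, against 19 of 5519 genes. In WT alone, 7 of the 24 CRK genes were at least 2-fold apart (29.2%), against 1.79% of the 5519. These were CRK6, CRK12, CRK13, CRK14, CRK15, CRK24 and CRK36, each higher in the shallower WT library. At any size, 18 of the 24 were higher in that library, against 3348 of the 5519. In JMJ28np5-OE, 2 of the 24 were 2-fold apart (8.33%), against 2.23%. The 5519 are genes with the lowest mean in jmj28, since only then were reads known in both other genotypes. Of the 6 genes 2-fold apart in both genotypes, CRK7 was called in jmj28 against JMJ28np5-OE and the other 5 in no comparison.

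Salicylic acid genes showed the same split between libraries for 2 of 14 genes, PR2 and ALD1. PR2, a salicylic acid marker, had 38.6 and 11.1 RPKM in the deeper and shallower JMJ28np5-OE libraries, against 1.10 and 9.65 RPKM in the deeper and shallower WT libraries. In the touch and early stress list 0 of 17 genes with reads in all 4 libraries were 2-fold apart in either pattern. For differences of any size, 13 of the 17 were higher in the shallower JMJ28np5-OE library and in the deeper WT library. With at least 10 reads in each library, this held for 5 of 24 CRK genes and for 1407 of the 5519 genes. The part of these library differences in the results of the CRK genes was not tested beyond leaving out a WT or JMJ28np5-OE library.

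**Figure D4:**
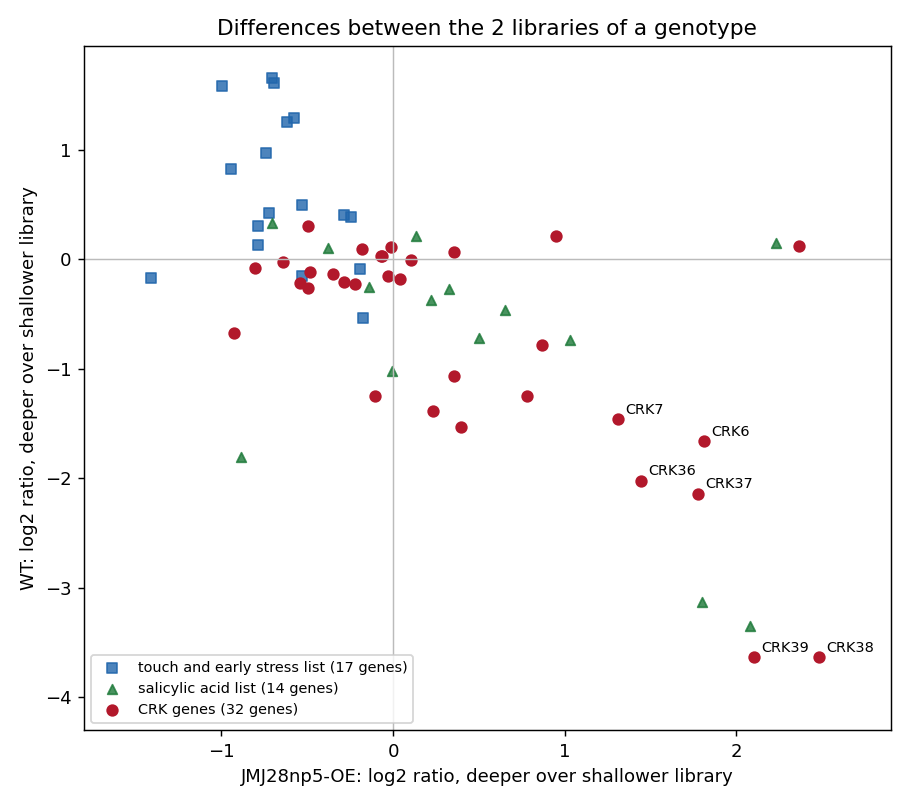
Each point is a gene placed by its log2 ratio of the deeper over the shallower library in JMJ28np5-OE (horizontal axis) and in WT (vertical axis), for 32 CRK genes (red circles), 14 salicylic acid genes (green triangles) and 17 touch and early stress genes (blue squares) with reads in all 4 libraries. The 6 named CRK genes sit at the lower right, beyond 1 on the horizontal and below −1 on the vertical axis, and most of the touch and early stress genes sit at the upper left.

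Related genes outside the naming rule were looked up by locus. AT4G11890, also known as ARCK1 or CRK45, an abscisic acid response kinase and a partner of CRK36, had 7.92 and 3.97 RPKM in the JMJ28np5-OE libraries, against 2.78 and 7.89 RPKM in WT. The deeper library was the higher in JMJ28np5-OE and the lower in WT. The authors' deposited tables give it a log2 fold change of −1.99 in jmj28 against WT (FDR 0.00637), of 0.18 in JMJ28np5-OE against WT (FDR 1.0) and of −2.17 in jmj28 against JMJ28np5-OE (FDR 0.000295). EMB1290, the locus of CRK17, had log2 fold changes of −0.25, 0.32 and −0.56 in the same order in the authors' deposited tables, and passed only in the last (FDR 0.023). The locus of CRK1, listed as RKF2, had no reads.

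The CDPK-related kinases that carry CRK names are listed as CRK1, CRK2_2, CRK3_2, CRK4_2, CRK6_1, CRK7_1 and CRK8_1, and the eighth gene of that family is listed as CRK. None of the 8 was called or had an unadjusted p under 0.05 in the authors' deposited tables in any of the 3 comparisons. Their log2 fold changes in the authors' deposited tables lay between −0.20 and 0.16. The plasmodesmata-located proteins, which carry DUF26 domains without a kinase, had 0 of 8 calls against WT in jmj28 or JMJ28np5-OE. At an unadjusted p under 0.05, 1 of them was higher in jmj28 and 2 were lower in JMJ28np5-OE. In jmj28 against JMJ28np5-OE, 2 of the 8 were called higher, PDLP2 and PDLP8, to which the authors' deposited table gives 0.69 (FDR 0.000412) and 1.20 (FDR 0.00224) as log2 fold changes. Of all tested genes, 4.12% were called higher there.

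Of 16 genes of immune receptor complexes, in which several CRKs take part, 2 were lower in jmj28 against WT, 2 were higher in JMJ28np5-OE against WT and 7 were lower in jmj28 against JMJ28np5-OE. Over all tested genes the shares called in these directions were 1.1%, 2.87% and 7.29%. The co-receptor gene SOBIR1 had log2 fold changes of −0.54 (FDR 3.28e-05), 0.61 (FDR 7.53e-08) and −1.15 (FDR listed as 0) in that order in the authors' deposited tables. BKK1, a close relative of BAK1, had −0.40 (FDR 0.0246), 0.20 (FDR 0.523) and −0.60 (FDR 3.11e-06) as log2 fold changes in the same tables of the authors' deposited set. BAK1, BIK1, RBOHD and FER, the genes of known CRK partners or of related surface receptors, were called in none, and the largest log2 fold change among them was −0.20 (RBOHD, jmj28 against WT) in the authors' deposited tables.

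The salicylic acid list had 2 of 16 genes lower in jmj28 against WT, 5 higher in JMJ28np5-OE against WT and 10 lower in jmj28 against JMJ28np5-OE. Over all tested genes the shares called in these directions were 1.1%, 2.87% and 7.29%. The genes lower in jmj28 were PR1, at −5.50 in log2 (FDR listed as 0), and WRKY70, with −0.88 (FDR 0.00225), in the authors' deposited table. PR1 was also the 1 gene of the list below 0 in JMJ28np5-OE against WT. Its log2 fold change there was −1.14 (FDR 0.105) in the authors' deposited table. It had 10.3 and 2.19 RPKM in the deeper and shallower JMJ28np5-OE libraries, against 14.7 and 13.2 RPKM in WT. The medians of the list were −0.42, 0.51 and −0.73 as log2 fold changes in the authors' deposited tables, in the order of the comparisons above. The touch and early stress list had 5 of 18 genes lower, 13 higher and 17 lower, with medians of −0.81, 1.18 and −2.05 in the authors' deposited tables. In JMJ28np5-OE against WT, 13 of 18 genes of that list and 2 of 40 CRK genes were called higher, beside 2.87% of all tested genes. The lists were written with earlier results of these data known, so their shares are no measure to set the CRK genes against.

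Markers of organs were set beside these results, since each library is a mixture of tissues. Of 13 root markers, 2 were higher in jmj28 against WT (TIP2;3 and AGP30), 0 were called in JMJ28np5-OE against WT (1 higher and 2 lower at an unadjusted p under 0.05), and 4 were higher in jmj28 against JMJ28np5-OE. Of all tested genes, 0.208% were called higher in jmj28 against WT. In jmj28 against JMJ28np5-OE, 4.12% of all tested genes were called higher and 7.29% lower. The summed level of the root list was 160.8 RPKM in jmj28, 117.4 RPKM in JMJ28np5-OE and 127.3 RPKM in WT, with the lowest genotype of a gene computed from the authors' deposited table. The median log2 fold changes of the root list were 0.14, −0.12 and 0.46 in the authors' deposited tables. Of 6 shoot markers, 0 were called in either comparison with WT, with 1 at an unadjusted p under 0.05 in each, and 1 was lower in jmj28 against JMJ28np5-OE (RCA). Summed in the same way from the authors' deposited table, shoot markers reached 19745 RPKM in jmj28, 21440.2 RPKM in JMJ28np5-OE and 20403 RPKM in WT, and flower, pollen and seed markers 1.53, 3.14 and 2.03 RPKM in that order. Flower, pollen and seed markers had 3 tested genes of 5, with VGD1 and CRU3 at 0 reads, and the 1 call among them was AP3, lower in jmj28 against JMJ28np5-OE. The part of tissue proportions in the CRK results was not tested.

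The 3 tested genes of at least 1 RPKM whose log2 fold changes over the 3 comparisons lay nearest to the median profile of the called CRK genes were AT5G58660, CYP71B36 and AT5G41740, at Euclidean distances of 0.122, 0.124 and 0.131. The median profile was −0.69, 0.27 and −1.17 in log2 fold change over the 16 called members in the authors' deposited tables. AT5G58660 was called in none of the comparisons, with log2 fold changes of −0.78 (FDR 0.903), 0.34 (FDR 1.0) and −1.12 (FDR 0.0795) in the authors' deposited tables. CYP71B36 had −0.75 (FDR 0.420), 0.33 (FDR 0.974) and −1.08 (FDR 0.00758) as log2 fold changes in the authors' deposited tables, and passed only in jmj28 against JMJ28np5-OE. AT5G41740 had log2 fold changes of −0.77 (FDR 0.031), 0.38 (FDR 0.505) and −1.15 (FDR 4.86e-06) in the authors' deposited tables.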

How the data were processed

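Total RNA of seedlings was made into TruSeq libraries, per the labels, and sequenced as paired reads of 150 bases, per the series' design text. The build named in the submitters' processing notes is TAIR10. The sources used here do not give the authors' aligner, read counter or test. The 3 tables the authors deposited hold, per the file headers, the authors' log2 fold change, fold change, p-value, FDR and Bonferroni p, and a maximum group mean identified as RPKM because the authors' deposited values become whole reads when multiplied by exon length. As no table holds values per library, the authors' FDR under 0.05 over all listed genes was used in place of a fit.

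Reads of both libraries were recovered from each mean (tolerance 1e-07 reads), with 1 solution for 98.9% of 45903 means. On simulated means 2848 of 2848 were right, but these were made with the same inferred library totals and a known genotype. The simulation thus does not check the totals, or to which genotype a second-highest mean belongs. The lowest genotype mean was computed from the deposited fold change after taking out its median offset from the RPKM ratio (−0.03, 0.02 and −0.06 log2 in jmj28 against WT, JMJ28np5-OE against WT and jmj28 against JMJ28np5-OE). For genes of 0.1 to 1 RPKM the difference in jmj28 against WT ran from −0.16 to 0.08 (5th to 95th percentile), so low means are approximate. At these depths 1 read per kilobase is 0.0508 to 0.094 RPKM.

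Exon lengths and sequences came from RefSeq TAIR10.1, where the start and end of all 41 CRK entries kept matched. Coding sequence identity took the place of a planned protein identity. Values per library were given for members called in any comparison, for CRK28 and CRK29 and for well studied members. Members and gene lists were chosen with earlier results of these data known. Python 3.11.15, pandas 2.3.3, statsmodels 0.14.6 and Biopython 1.88 were used. Alternatives were the Bonferroni p, other backgrounds for the adjustment, a 1.5-fold minimum, members without overlaps or close copies, other pseudocounts and leaving out a library.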

Additional observations from a re-analysis of the deposited data

How the results depend on the processing

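At the deposited Bonferroni p under 0.05 the CRK calls were 2 in jmj28 against WT, 1 in JMJ28np5-OE against WT and 6 in jmj28 against JMJ28np5-OE, fewer because this adjustment is stricter. In a further setting the 21 of 40 members at least 80% identical to another member were left out. The rest held 4 calls in jmj28 against WT, 2 in JMJ28np5-OE against WT and 8 in jmj28 against JMJ28np5-OE, with fewer genes counted. An alternative chosen after seeing the data, in which each known library had to differ by 1.5-fold or more in the called direction, left 5 calls in jmj28 against WT, 1 in JMJ28np5-OE against WT (CRK4) and 12 in jmj28 against JMJ28np5-OE. The 36 members with the kinase codons, also chosen after seeing the data, held 5, 2 and 14 calls in that order. Under the other backgrounds for the adjustment, a 1.5-fold minimum and members without overlaps, counts ran from 5 to 6, 2 to 3 and 12 to 17. Shares over all tested genes were not counted under these settings, so these counts have no background beside them. Leaving out a WT or JMJ28np5-OE library gave log2 ratios of −2.54 to −0.42 for the calls in jmj28 against WT. They were 0.37 to 0.91 in JMJ28np5-OE against WT and −2.93 to −0.28 in jmj28 against JMJ28np5-OE. No direction turned, but none could, since the known values of the compared genotypes did not overlap for any called gene. No jmj28 library could be left out, because its values are not known for the called genes. The planned pseudocount check could use only members with both means known (5, 33 and 2 in the same order), which for the comparisons with jmj28 are those where jmj28 was not lowest, so it says nothing of the medians over all 40. Over all 40, with the lowest mean computed from the deposited fold change (added after seeing the data), the median log2 ratio with pseudocounts of 1 and 0.1 was −0.27 and −0.54 in jmj28 against WT, 0.08 and 0.16 in JMJ28np5-OE against WT, and −0.38 and −0.61 in jmj28 against JMJ28np5-OE. No paired analysis was possible because the tables hold no column per library and the solved libraries carry no replicate number. Low depth limits the 13 members under 1 RPKM, and the spread of jmj28 is unknown for 33 members.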
